A study of Mus musculus with 4 samples.

Results

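The genes described here are 10 effectors and direct targets of canonical WNT signalling, chosen by name and matched to the deposited count table by gene identifier. All 10 were found among the 55401 genes of the table. They are the DNA-binding factor genes Tcf7, Tcf7l1 and Lef1, the feedback inhibitor genes Axin2, Notum, Nkd1, Rnf43 and Znrf3, and the target transcription factor genes Sp5 and Cdx1. Polyadenylated RNA was sequenced from R1 cells, a mouse embryonic stem cell line, in a control group labelled CTL (genotype WT) and a group labelled Usp28 KO, with 2 libraries each. Usp28 encodes a deubiquitinase, and KO stands for knockout. Both groups grew on 0.2% gelatin in N2B27 medium that held 10 ng/ml of the cytokine LIF, 1 μM of PD0325901, which inhibits MEK, and 3 μM of CHIR99021, which inhibits GSK3. Every library therefore came from cells under GSK3 inhibition, and no library without CHIR99021 was analysed here. The labels do not say how the knockout was made, whether it is 1 clone, or whether the libraries of a group are separate cultures, so the p-values rest on a spread between libraries that may be only technical.

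In canonical WNT signalling, a complex built on AXIN and APC lets GSK3 phosphorylate β-catenin, which marks it for destruction. When GSK3 is blocked, by WNT or by an inhibitor such as CHIR99021, β-catenin accumulates and joins TCF/LEF proteins on DNA. In mouse embryonic stem cells the family member TCF7L1 mainly represses genes of the naive pluripotent state, and β-catenin relieves that repression, while TCF7 and LEF1 mainly activate. Many targets feed back on the pathway at the receptor, at the ligand or in the cytoplasm.

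TCF/LEF proteins recognise DNA with the core CTTTGA, or TCAAAG when read on the other strand. The 3 promoter windows below are shown to let the classical target genes Sp5 and Axin2 be compared with each other and with an internal start of Lef1, the other gene with matches. Each is the stretch of 250 bases before a RefSeq transcript start on GRCm38.p6, with the letters CTTTGA or TCAAAG in capitals. The Sp5 window is chr2:70474673-70474922 on the plus strand, the Lef1 window is chr3:131156044-131156293 on the plus strand and lies within the span of the Lef1 gene, and the Axin2 window is chr11:108920099-108920348 on the plus strand.
Sp5: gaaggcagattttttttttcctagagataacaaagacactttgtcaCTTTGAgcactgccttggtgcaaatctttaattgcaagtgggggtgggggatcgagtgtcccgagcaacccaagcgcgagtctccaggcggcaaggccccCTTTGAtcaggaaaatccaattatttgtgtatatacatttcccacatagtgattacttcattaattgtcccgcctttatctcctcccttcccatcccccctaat
Lef1: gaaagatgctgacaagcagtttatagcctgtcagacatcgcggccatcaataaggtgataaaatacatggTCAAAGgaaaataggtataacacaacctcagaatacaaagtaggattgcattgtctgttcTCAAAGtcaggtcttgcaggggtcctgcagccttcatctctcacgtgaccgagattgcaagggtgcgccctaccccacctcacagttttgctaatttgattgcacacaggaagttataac
Axin2: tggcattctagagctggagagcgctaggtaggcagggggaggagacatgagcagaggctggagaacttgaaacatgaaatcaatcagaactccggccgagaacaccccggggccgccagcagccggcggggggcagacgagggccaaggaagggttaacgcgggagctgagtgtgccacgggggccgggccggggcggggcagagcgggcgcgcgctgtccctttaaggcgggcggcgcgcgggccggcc
The Sp5 window held the core at 204 and 104 bases before the start, and the Lef1 window held it at 180 and 120 bases before the start. The other windows had no match, including that of Axin2, which says only that these letters are not in those 250 bases. Windows were in the RefSeq table for 7 of the 10 genes, 12 in all, and 2 of these 12 held the core on either strand, against 13.8% of 32851 windows of all genes. The longer form CTTTGAT, or ATCAAAG, which contains the core, was found in Sp5 alone of the 7 genes and in 3.21% of all windows.

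The libraries held 16595196 to 19533608 counts. The gene Usp28 itself kept its transcript: it stood at 189 and 197 CPM (reads per 1e6 of the library size as scaled by TMM) in CTL and at 181 and 177 CPM in Usp28 KO libraries. A count over the whole gene does not check the knockout label, so directions are given between the libraries as labelled. Pluripotency genes marked all libraries, with Pou5f1 at 482 to 626 CPM, Sox2 at 501 to 571 CPM and Nanog at 526 to 656 CPM. The summed level of 8 pluripotency markers was 5011 to 5249 CPM in CTL and 5296 to 5337 CPM in Usp28 KO libraries. Summed markers of other cells were far lower: primitive endoderm (7 genes) at 8.76 to 12.9 CPM in CTL and 12.2 to 12.8 CPM in Usp28 KO, primitive streak and mesoderm (7 genes) at 16.5 to 23.1 and 16.7 to 25.7 CPM, trophoblast (8 genes) at 154 to 191 and 152 to 188 CPM, and fibroblasts (7 genes, with Dcn, Lum and Postn at 0) at 0.563 to 1.07 and 1.02 to 1.07 CPM. The 6 neural progenitor markers summed to 53.1 and 57.7 CPM in CTL and to 84.8 and 80.5 CPM in Usp28 KO libraries, with Neurog2 at 0. Of these markers edgeR tested 3: Nes had a log2 fold change of 1.26, and the other 2 were at -0.097 and -0.0070. DESeq2 called 1 of the 6 higher at an adjusted p under 0.05, against 0.604% of 13411 genes. The sums of the other lists also cover single differences at an unadjusted p under 0.05 by edgeR. These were Sox7, lower, of 4 tested endoderm markers and Krt18, higher, of 4 tested trophoblast markers, where 6.86% of all tested genes were higher and 4.34% lower. Libraries also differed in the share of mitochondrial counts, at 2.77% and 5.65% in CTL and 1.92% and 3.33% in Usp28 KO, and in how levels followed the GC content of transcripts. Across 10704 genes, the rank correlation of a library's log2 CPM, relative to the other libraries, with GC content was 0.0581 in CTL replicate 1, -0.449 in CTL replicate 2, 0.0215 in Usp28 KO replicate 1 and 0.436 in Usp28 KO replicate 2. The part of these differences in the results below was not tested, apart from a GC correction whose values are given.

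Among the 10 genes, Cdx1 was the one that passed the test of any tool (edgeR, limma-voom or DESeq2) with the group as the only term and all 4 libraries. It was 2.68-fold lower in the libraries labelled Usp28 KO by the edgeR estimate, and it passed DESeq2. In bulk RNA, fewer cells with a transcript and less of it per cell cannot be told apart. Notum was lower and Rnf43 higher at unadjusted p-values only, and Axin2, the standard readout of β-catenin activity, differed by 1.14-fold with an interval that includes no difference. All 10 genes passed the filter on low counts. By edgeR's quasi-likelihood test with Benjamini-Hochberg adjustment, 0 of the 10 passed an adjusted p of 0.05 in either direction, and limma-voom also called 0 each way. Over all 15341 tested genes both tests called 0% higher and 0% lower, as did edgeR after GC correction. DESeq2 called 0 of the 10 higher and 1 lower, where it called 0.604% of 13411 genes higher and 0.365% lower. At an unadjusted p under 0.05 edgeR counted 1 higher and 2 lower of the 10, against 6.86% and 4.34% of all tested genes. The groups did not overlap in 3 genes that were higher (Tcf7, Nkd1 and Rnf43) and in 3 that were lower (Axin2, Cdx1 and Notum), which held for 21.4% and 20.4% of all tested genes. The median log2 fold change, Usp28 KO minus CTL, was -0.22 over the 10 genes and -0.0040 over all tested genes. It was -0.015 without Usp28 KO replicate 1 and -0.38 without Usp28 KO replicate 2. A fit without 1 library leaves a group of 1, which is assumed to vary like the libraries of the other group. Such fits called 49 to 146 of all genes higher and 31 to 200 lower, where the fit to all 4 libraries called 0, so a call gained in them is no support for a gene. Across the 10704 genes with a mean of at least 5 CPM, which are not independent replicates, the rank correlation of the log2 fold change with transcript GC content was 0.329, and the 10 genes ran in GC content from 50.4% for Lef1 to 62.1% for Cdx1. After a correction for this trend their median was -0.35, and the 6 genes with negative log2 fold changes were all further from 0 than before. Of the genes with positive ones, Tcf7 (0.24 to 0.15), Nkd1 (0.63 to 0.54) and Rnf43 (1.13 to 1.01) moved towards 0. Lef1 went from 0.32 to 0.33.

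**Figure D1:**
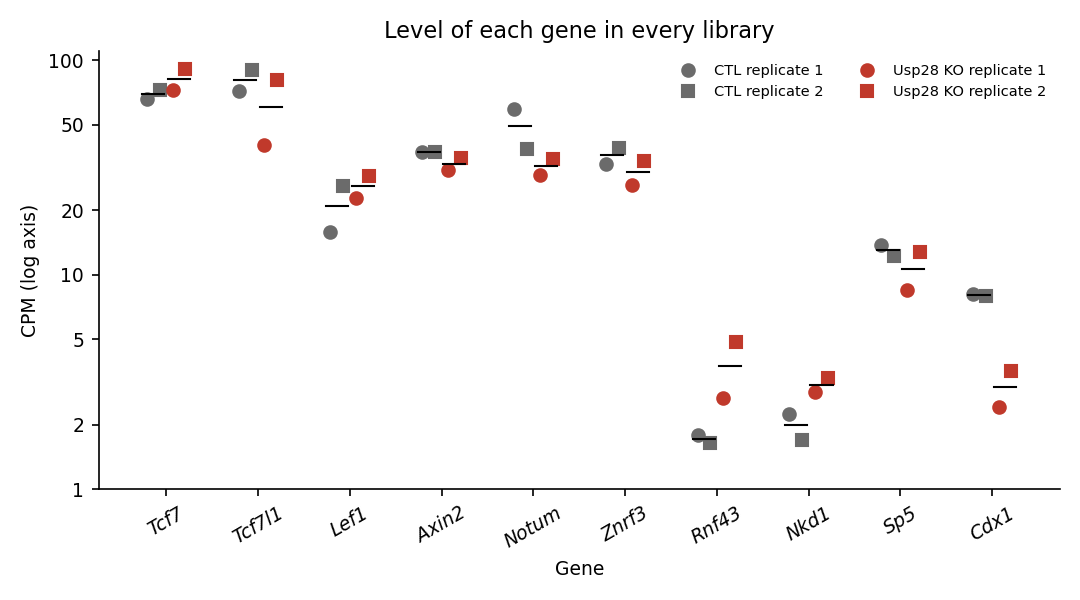
CPM of each gene (log axis) in the 4 libraries, with a horizontal line at the mean of each group of 2. Cdx1 is at 2.41 and 3.57 CPM in Usp28 KO against 8.09 and 7.95 CPM in CTL libraries, and Tcf7l1 is at 40.4 CPM in Usp28 KO replicate 1 against 71.8 to 90.5 CPM in the other libraries.

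Levels of different genes were compared as CPM per kilobase of annotated exon, a scale that understates a gene whose short isoforms are used. In CTL libraries Tcf7 (23.0 ± 1.49 CPM per kilobase, SD, n = 2), Tcf7l1 (20.7 ± 3.38) and Notum (20.4 ± 6.14) were highest, and their ranges overlapped. Axin2 followed at 6.77 ± 0.0207 and Sp5 at 6.18 ± 0.538 CPM per kilobase. Cdx1 (4.58 ± 0.0574) and Znrf3 (4.56 ± 0.573) were not separated from each other. Lef1 was at 2.38 ± 0.822, Nkd1 at 0.434 ± 0.0853 and Rnf43 at 0.262 ± 0.0164 CPM per kilobase. Of the paralogous ubiquitin ligase genes, Znrf3 thus stood far above Rnf43, and the feedback inhibitor genes spanned the range from Notum near the top to Rnf43 at the bottom. In Usp28 KO libraries Tcf7 was highest (27.1 ± 4.16), before Tcf7l1 (15.5 ± 7.38) and Notum (13.3 ± 1.65). The ranges of Tcf7l1 (10.3 to 20.7) and Notum (12.1 to 14.5) overlapped. Rnf43 was again lowest (0.574 ± 0.235), its range of 0.408 to 0.740 overlapping that of Nkd1 at 0.622 to 0.726.

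The DNA-binding factors were a Tcf7 and Tcf7l1 pool in all 4 libraries. Tcf7 (ENSMUSG00000000782, mm10 chromosome 11, 52252371 to 52283331) stood at 66.2 and 72.6 CPM in CTL and at 72.9 and 90.7 CPM in Usp28 KO libraries. Both Usp28 KO values lay above both CTL values, the lower of them by less than the distance between the CTL libraries. The group difference was a log2 fold change of 0.24 ± 0.17 (SE; 95% interval -0.14 to 0.61; edgeR, adjusted p = 0.663), and 0.067 without Usp28 KO replicate 2.

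Tcf7l1 (ENSMUSG00000055799, chromosome 6, 72626378 to 72789254), the repressor of the family, stood at 71.8 and 90.5 CPM in CTL and at 40.4 and 81.3 CPM in Usp28 KO libraries. Usp28 KO replicate 1 was the low library, and replicate 2 lay between the CTL values. The log2 fold change was -0.41 ± 0.28 (95% interval -1.05 to 0.22; edgeR, adjusted p = 0.648). Single libraries decided this value. Leaving out Usp28 KO replicate 1 gave 0.0030 (adjusted p = 0.999), and leaving out Usp28 KO replicate 2 gave -1.01 (adjusted p = 0.00264, with the low library alone in its group and the spread taken from CTL). The log2 fold change was -0.25 without CTL replicate 2. In the alternatives with all 4 libraries, the adjusted p ran from 8.33e-05 to 0.760 (DESeq2). The lowest came from edgeR with the replicate number as a block and the GC correction, a fit that called 1297 of all genes higher and 1391 lower. The Usp28 KO libraries differed more from each other than the means of the groups did.

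Lef1 (ENSMUSG00000027985, chromosome 3, 131110471 to 131224356) stood at 15.8 and 26.0 CPM in CTL and at 22.8 and 29.0 CPM in Usp28 KO libraries. The groups overlapped, and CTL replicate 1 was the low library. Lef1 had a log2 fold change of 0.32 ± 0.25 (95% interval -0.22 to 0.86; edgeR, adjusted p = 0.688), and it was -0.0057 without CTL replicate 1 and 0.71 without CTL replicate 2. Tcf7l2, the remaining gene of the family, was the least abundant per kilobase, at 7.52 and 11.5 CPM in CTL against 4.76 and 7.47 CPM in Usp28 KO (log2 fold change -0.63 ± 0.30; edgeR, adjusted p = 0.469; -0.31 without CTL replicate 2).

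As a share of the TCF/LEF transcripts, each scaled by its exon length, Tcf7 made up 51.2% and 46.8% in CTL and 64.3% and 54.7% in Usp28 KO libraries. Tcf7l1 made up 42.7% and 44.9% in CTL and 27.4% and 37.8% in Usp28 KO libraries. The groups did not overlap in either share, nor in those of Lef1 and Tcf7l2. These shares are not independent: Tcf7 and Tcf7l1 make up most of the sum, so a lower share of one goes with a higher share of the other. In CPM, the groups did not overlap in 21.4% of all tested genes that were higher and 20.4% that were lower. An exact permutation test of 2 libraries against 2 cannot go below p = 0.333, and the shares were not tested in another way. Lef1 held 4.18% to 5.76% in CTL and 6.0% to 6.92% in Usp28 KO libraries, and Tcf7l2 2.51% or less in every library. The summed level of the family was 42.9 and 51.4 CPM per kilobase in CTL and 37.6 and 54.9 in Usp28 KO libraries, so the Usp28 KO libraries held both the lowest and the highest sum.

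**Figure D2:**
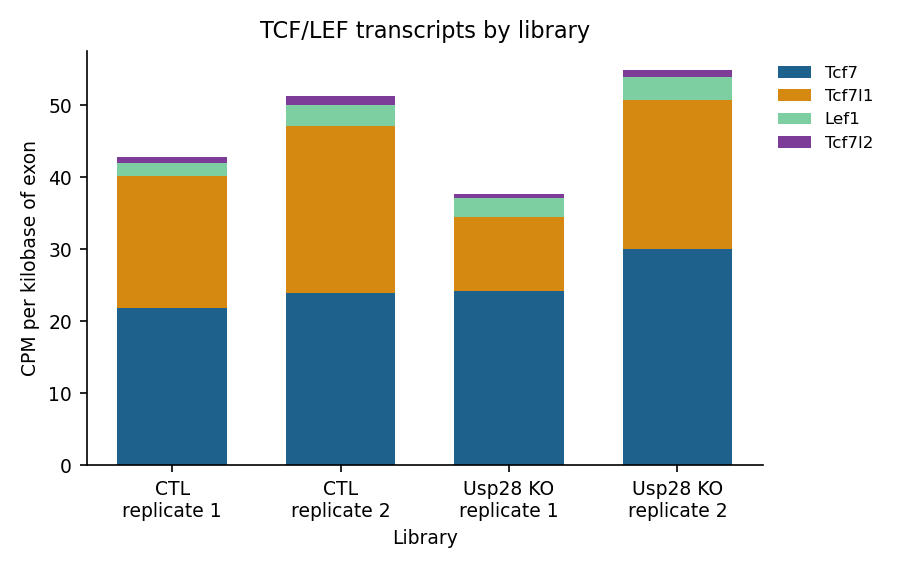
CPM per kilobase of exon of Tcf7, Tcf7l1, Lef1 and Tcf7l2, stacked, in each of the 4 libraries. Tcf7l1 makes up 18.3 and 23.1 CPM per kilobase in the CTL libraries, and 10.3 in Usp28 KO replicate 1 against 20.7 in replicate 2.

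Among the feedback inhibitors, Axin2 (ENSMUSG00000000142, chromosome 11, 108920349 to 108950783) encodes the inducible scaffold of the β-catenin destruction complex. It stood at 37.4 and 37.2 CPM in CTL and at 30.7 and 34.9 CPM in Usp28 KO libraries. The CTL libraries were nearly equal and both Usp28 KO libraries lay below them. Axin2 had a log2 fold change of -0.18 ± 0.18 (95% interval -0.58 to 0.21; edgeR, adjusted p = 0.759), or -0.35 after GC correction and -0.29 to -0.097 with a library left out. Its constitutive paralog Axin1 stood at 71.4 ± 7.57 CPM in CTL and 72.6 ± 0.113 CPM in Usp28 KO libraries (SD, n = 2 each).

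Notum (ENSMUSG00000042988, chromosome 11, 120653788 to 120661175) encodes a secreted enzyme that removes the lipid from WNT proteins and so inactivates them. It stood at 59.6 and 38.7 CPM in CTL and at 29.2 and 34.8 CPM in Usp28 KO libraries. CTL replicate 1 was far above the other libraries, and CTL replicate 2 lay close to the Usp28 KO libraries, without overlap. The difference was a log2 fold change of -0.62 ± 0.22 (95% interval -1.10 to -0.15; edgeR, unadjusted p = 0.0145, adjusted p = 0.322). It was -0.28 without CTL replicate 1 and -0.91 without CTL replicate 2, a fit with the high library alone in its group. After GC correction it was -0.80 (edgeR, adjusted p = 0.305). In the alternatives with all 4 libraries, the adjusted p ran from 0.000174 (edgeR with replicate block and GC correction) to 0.350 (edgeR with library totals).

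Rnf43 and Znrf3 encode membrane ubiquitin ligases that remove WNT receptors of the Frizzled family from the cell surface. Rnf43 (ENSMUSG00000034177, chromosome 11, 87662722 to 87735539) was scarce, with 35 and 26 counts in CTL and 50 and 91 in Usp28 KO libraries. This was 1.79 and 1.64 CPM in CTL and 2.67 and 4.85 CPM in Usp28 KO libraries. Both Usp28 KO libraries lay above both CTL libraries, and Usp28 KO replicate 2 was the high one. Rnf43 had a log2 fold change of 1.13 ± 0.39 (95% interval 0.29 to 1.96; edgeR, unadjusted p = 0.0122, adjusted p = 0.306), 1.49 without Usp28 KO replicate 1 and 0.63 without Usp28 KO replicate 2. Its adjusted p ran from 0.00903, with the replicate number as a block, to 0.659 over all alternatives.

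Znrf3 (ENSMUSG00000041961, chromosome 11, 5276324 to 5444847) stood at 32.8 and 39.2 CPM in CTL and at 26.1 and 34.0 CPM in Usp28 KO libraries. The groups overlapped. Znrf3 had a log2 fold change of -0.26 ± 0.20 (95% interval -0.69 to 0.18; edgeR, adjusted p = 0.686), and -0.47 to -0.079 with a library left out. This ligase gene, the more abundant of the pair, had the opposite sign to Rnf43, a difference between genes that was not tested.

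Nkd1 (ENSMUSG00000031661, chromosome 8, 88521354 to 88594884) encodes a cytoplasmic inhibitor that binds Dishevelled. It had 44 and 27 counts in CTL and 53 and 62 in Usp28 KO libraries, or 2.25 and 1.70 against 2.84 and 3.31 CPM. The groups did not overlap, and the log2 fold change was 0.63 ± 0.35 (95% interval -0.14 to 1.39; edgeR, adjusted p = 0.554), or 0.44 to 0.85 with a library left out. Its paralog Nkd2, which is not among the 10 genes, stood at 2.76 and 2.40 CPM in CTL against 3.91 and 5.55 CPM in Usp28 KO (log2 fold change 0.87 ± 0.33; edgeR, unadjusted p = 0.0202, adjusted p = 0.340). At counts this low, the intervals of Rnf43 and Nkd1 were wide.

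Of the target transcription factors, Cdx1 (ENSMUSG00000024619, chromosome 18, 61018862 to 61036199) encodes a caudal-type homeobox factor of the posterior embryo and is a direct WNT target. It had 158 and 126 counts in CTL and 45 and 67 in Usp28 KO libraries, which was 8.09 and 7.95 CPM against 2.41 and 3.57 CPM. The CTL libraries were nearly equal, and both Usp28 KO libraries lay well below them. The log2 fold change was -1.42 ± 0.30 (95% interval -2.06 to -0.78). It passed DESeq2 (adjusted p = 0.0264) and edgeR without the filter on low counts (adjusted p = 0.0020, where 0.754% of 27042 genes were called higher and 0.436% lower), and missed edgeR as fitted (adjusted p = 0.101), limma-voom (adjusted p = 0.121) and edgeR after GC correction (-1.66, adjusted p = 0.288). With a library left out, and so 1 library in a group, the log2 fold change ran from -1.74 without Usp28 KO replicate 2 (adjusted p = 0.00404) to -1.16 without Usp28 KO replicate 1 (adjusted p = 0.147). Over all alternatives its adjusted p ran from 3.36e-07 (edgeR with replicate block) to 0.288 (edgeR after GC correction). The related factor genes Cdx2 and Cdx4 had too few reads to be tested, at 0.102 CPM or less in every library.

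Sp5 (ENSMUSG00000075304, chromosome 2, 70474923 to 70477729) encodes a zinc finger factor that WNT induces directly, and its promoter window above holds the TCF/LEF core. It stood at 13.8 and 12.2 CPM in CTL and at 8.51 and 12.7 CPM in Usp28 KO libraries. The groups overlapped, and Usp28 KO replicate 1 was the low library. Sp5 had a log2 fold change of -0.29 ± 0.25 (95% interval -0.84 to 0.25; edgeR, adjusted p = 0.719), -0.033 without that library and -0.53 after GC correction. Sp8, its relative and a further target, was scarcer, at 2.76 and 1.45 CPM in CTL against 1.66 and 0.853 CPM in Usp28 KO (log2 fold change -0.76 ± 0.47; edgeR, adjusted p = 0.602), and its log2 fold change was -0.21 without CTL replicate 1 and -1.31 without Usp28 KO replicate 1.

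**Figure D3:**
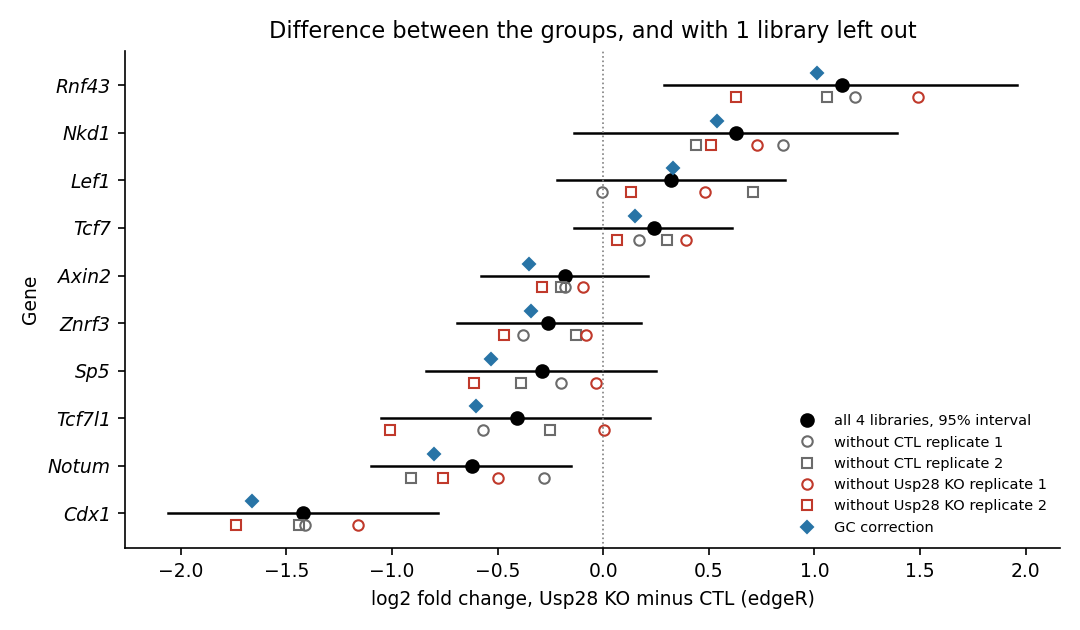
Log2 fold change (Usp28 KO minus CTL, edgeR) of each gene with its 95% interval, with open symbols for fits that leave out 1 library and diamonds for the GC correction. The interval is on 1 side of 0 for Cdx1, Notum and Rnf43, and leaving out 1 Usp28 KO library moves Tcf7l1 between -1.01 and 0.0030.

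Reads of some of these genes could not be told apart from an antisense neighbour, since the strand setting of the counting is not given in the sources used here. Exons of other annotated genes on the opposite strand covered 209 bases of Axin2 (Gm11670), 1208 of Lef1 (Gm43352), 179 of Tcf7l1 (Gm15401) and 918 of Notum (Myadml2os and Notumos). No annotated exon of another gene overlapped Sp5, Tcf7, Cdx1, Nkd1, Rnf43 or Znrf3. For Tcf7, the span in the deposited table differs from that in GENCODE M21, whose exons were used for this check.

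The rest of the pathway was described with 104 further genes in 7 lists by role, of which 73 had enough reads to be tested. By edgeR 0 of the 73 passed an adjusted p of 0.05 in either direction (limma-voom 0 and 0). DESeq2 called 0 higher and 1 lower, against 0.604% and 0.365% of all genes. At an unadjusted p under 0.05, edgeR counted 8 of the 73 higher and 3 lower, against 6.86% and 4.34% of all tested genes. Their median log2 fold change was 0.023, against -0.0040 for all tested genes. WNT ligand genes had few reads: of the 21 genes for ligands and their secretion 6 were tested, and Wnt1, Wnt2, Wnt9b and Wnt10a had no read in any library. Wnt3a was at 0.921 and 0.378 CPM in CTL and at 0 and 0.320 CPM in Usp28 KO libraries. Porcn, which encodes the enzyme that adds the lipid to WNT proteins, stood at 51.0 and 48.2 CPM in CTL and 32.2 and 46.2 CPM in the Usp28 KO libraries (log2 fold change -0.34 ± 0.20; edgeR, adjusted p = 0.573), and -0.10 without Usp28 KO replicate 1. Wnt9a, the ligand gene with the smallest p, had a log2 fold change of 0.96 ± 0.47 at 0.757 to 2.84 CPM (edgeR, adjusted p = 0.477), and 0.49 without Usp28 KO replicate 1 against 1.54 without CTL replicate 1. The ligand list's median was -0.14, but 0.17 without CTL replicate 1 and -0.33 without CTL replicate 2.

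Receptor genes had more reads, with 18 of 22 receptor and R-spondin genes tested and a median log2 fold change of 0.089, or 0.21 without CTL replicate 1. Fzd7 (172 to 197 CPM) and Fzd5 (130 to 144 CPM) had the most reads of the Frizzled genes over the 4 libraries. The co-receptor gene Lrp5 stood at 50.4 and 45.0 CPM in CTL and 63.1 and 62.9 CPM in the Usp28 KO libraries (log2 fold change 0.40 ± 0.17; edgeR, unadjusted p = 0.0326, adjusted p = 0.390). Lrp6, its partner, was at 94.2 ± 4.89 CPM in CTL and 93.2 ± 0.901 CPM in Usp28 KO libraries. Fzd3, at 6.91 and 5.42 CPM in CTL and 13.2 and 6.93 CPM in Usp28 KO, and Fzd9 had log2 fold changes of 0.70 ± 0.32 and 0.67 ± 0.35 (edgeR, adjusted p = 0.432 and 0.513). Fzd3 was at 0.16 without Usp28 KO replicate 1, and at 1.09 without Usp28 KO replicate 2, which leaves the high library alone in its group (edgeR, adjusted p = 0.0449). In the alternatives with all 4 libraries, the adjusted p of Fzd3 ran from 0.00306 (edgeR with replicate block and GC correction) to 0.610 (DESeq2).

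Of 17 extracellular antagonist genes 9 were tested, with a median of 0.32. This median was 0.15 after GC correction, 0.10 with the stricter filter, and 0.11 without Usp28 KO replicate 1 or 0.17 without CTL replicate 2. In this list Dkk1, Dkk2, Dkk4, Sost and Sostdc1 had no read. Dkk3 stood at 1.54 and 1.45 CPM in CTL and 2.62 and 2.93 CPM in the Usp28 KO libraries (log2 fold change 0.89 ± 0.37; edgeR, unadjusted p = 0.0311, adjusted p = 0.384), and Kremen1, a receptor for Dickkopf proteins, had a log2 fold change of 0.33 ± 0.21. All 17 cytoplasmic transduction genes were tested, with a median of 0.024 (0.13 without CTL replicate 1 and -0.043 without CTL replicate 2). The kinase genes that CHIR99021 targets differed by less than their standard errors: Gsk3a by 0.031 ± 0.18 and Gsk3b by -0.13 ± 0.19 (signs that change between alternatives for both). Apc, a scaffold of the destruction complex, stood at 236 ± 53.7 CPM in CTL and 192 ± 25.4 CPM in Usp28 KO libraries, and Dvl1, a Dishevelled gene, had a log2 fold change of 0.47 ± 0.18 (edgeR, unadjusted p = 0.0213, adjusted p = 0.343), or 0.27 after GC correction.

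In the nuclear complex, Ctnnb1, the β-catenin gene, was at 637 and 515 CPM in CTL and 613 and 507 CPM in the Usp28 KO libraries (log2 fold change -0.041 ± 0.18, with a positive sign under upper-quartile scaling and library totals). All 13 genes of this list were tested, with a median of -0.041, or 0.067 without CTL replicate 1. The corepressor gene Tle4 stood at 171 and 204 CPM in CTL and 127 and 146 CPM in the Usp28 KO libraries (log2 fold change -0.46 ± 0.17; edgeR, unadjusted p = 0.0166, adjusted p = 0.327). Aes, a short relative of the TLE genes, stood at 153 and 141 CPM in CTL and 185 and 237 CPM in the Usp28 KO libraries (log2 fold change 0.53 ± 0.17; edgeR, unadjusted p = 0.00903, adjusted p = 0.274), or 0.33 after GC correction.

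Among 10 further targets 6 were tested, with a median of -0.067 that ran from -0.24 without CTL replicate 2 to 0.13 without CTL replicate 1. Myc, a target of WNT and of other pathways, stood at 9.88 and 9.71 CPM in CTL and 2.09 and 4.0 CPM in Usp28 KO libraries. As with Cdx1, it fell by DESeq2 (adjusted p = 0.00453) but missed edgeR (log2 fold change -1.68 ± 0.32, adjusted p = 0.0715; over all alternatives 7.67e-11, edgeR with replicate block, to 0.288, edgeR after GC correction). With a library left out, and so 1 library in a group, it ran from -2.23 without Usp28 KO replicate 2 to -1.29 without Usp28 KO replicate 1 (adjusted p = 0.0563). Ascl2 had 3 and 9 counts in CTL and 16 and 26 in Usp28 KO libraries, or 0.154 to 1.39 CPM. Only its Usp28 KO counts reached the filter's minimum count of 10, and DESeq2 gave it no adjusted p. Its log2 fold change was 1.68 ± 0.65 (edgeR, unadjusted p = 0.0228, adjusted p = 0.348), and 0.97 without CTL replicate 1 or 2.81 without CTL replicate 2. The mesoderm gene T was at 2.00 and 1.51 CPM in CTL and 1.98 and 1.60 CPM in Usp28 KO libraries. Of 4 naive pluripotency genes that TCF7L1 is known to repress, 0 passed edgeR, and all 4 had negative log2 fold changes, as had 7757 of all 15341 tested genes. Their median was -0.20, or -0.39 after GC correction, -0.015 without Usp28 KO replicate 1 and -0.47 without Usp28 KO replicate 2. Tfcp2l1 was at 999 and 994 CPM in CTL and 680 and 694 CPM in the Usp28 KO libraries (log2 fold change -0.54 ± 0.17; edgeR, unadjusted p = 0.00702, adjusted p = 0.250; DESeq2, adjusted p = 0.0840). Klf2 had a log2 fold change of -0.24 ± 0.21, which was 0.054 without Usp28 KO replicate 1. Nanog had one of -0.11 ± 0.18, which was 0.051 without CTL replicate 2.

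**Figure D4:**
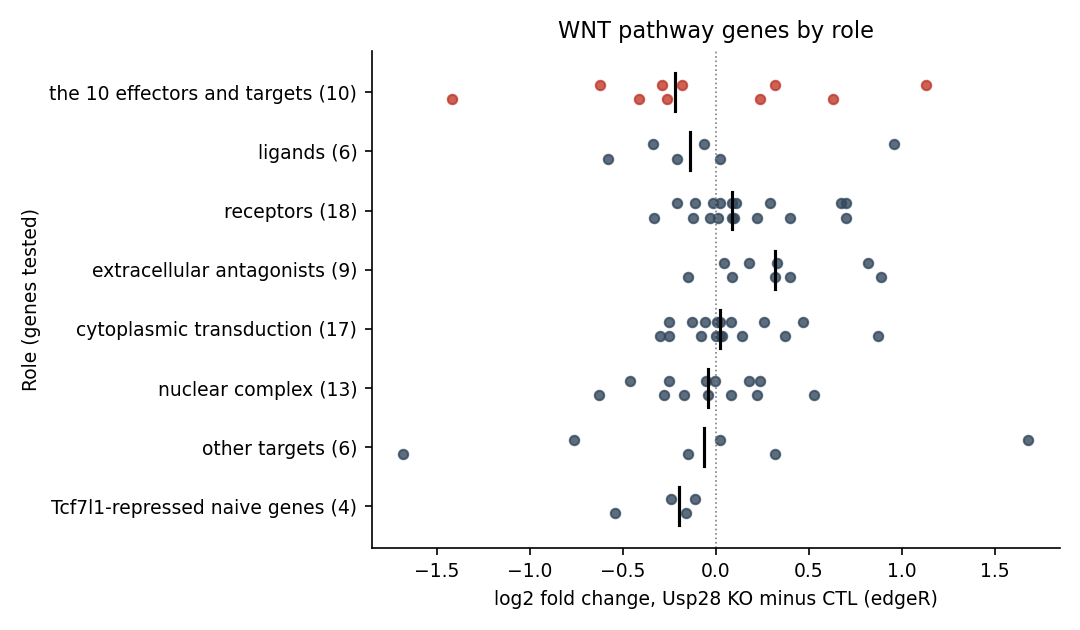
Log2 fold change (Usp28 KO minus CTL, edgeR) of each tested WNT pathway gene by role, with the number tested in brackets and the median as a black bar. The medians of the 7 other lists lie between -0.20 and 0.32, and that of the 10 effectors and targets is -0.22.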

How the data were processed

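The authors deposited one table of raw counts of reads per gene, with a column for each of 4 libraries. The submitters' processing notes name HISAT2, featureCounts, DESeq2 and build mm10 and give no version. The sources used here do not give the annotation release, the strand setting or the treatment of multi-mapping reads. Per the file headers the table also gives exon positions and exon length. Identifiers without version suffix were matched to GENCODE M21 (55141 matched, 260 did not). Genes were kept by filterByExpr, leaving 15341. Its minimum count of 10 is applied as a CPM cutoff that at least 2 libraries must reach, and the minimum total was 15 counts. Libraries were scaled by TMM, and Usp28 KO was compared with CTL by edgeR 4.0.16 (robust quasi-likelihood, R 4.3.3) with Benjamini-Hochberg adjustment over all tested genes and a threshold of 0.05. The standard error is the log2 fold change divided by the square root of F. CPM is per 1e6 of the scaled library size. The filtered libraries held 16574165 to 19508688 counts, and this depth, with 2 libraries per group, sets the precision. Steps were tested on simulated data, with 50 genes changed at each fold size. The share recovered was 24% at 1.5-fold, 78% at 2-fold and 100% at 3-fold and at 4-fold. There were 7 false calls among 15341 genes. The changed genes were drawn from those with a mean above 5 CPM, and the simulated spread was that of the fit. A gene that missed the threshold may therefore still differ by 1.5-fold, 2-fold or more. In the data, Cdx1 and Myc missed it by edgeR at estimates of 2.68-fold and 3.21-fold lower. Whether the simulated rates hold for genes with few counts or under the GC trend was not tested.

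The alternatives were DESeq2 1.42.0, limma-voom (limma 3.58.1), 3 other scalings (size factors of DESeq2, upper quartile, totals alone), no filter, a stricter one (50 counts in at least 2 libraries), a replicate block, a GC correction (natural spline, 5 degrees of freedom, GC content known for 99.9% of tested genes), both together, and leaving out each library. The members and lists were chosen with earlier results of these data known. Named are the 10 genes, Usp28, Pou5f1, Sox2, Nanog, 9 fixed pathway genes (Ctnnb1, Gsk3a, Gsk3b, Axin1, Apc, Lrp5, Lrp6, Tcf7l2, Myc) and, per role list, up to 2 other genes with the smallest edgeR p. Nes, Sox7, Krt18, Wnt3a, Fzd5, Fzd7, T, Cdx2 and Cdx4 and genes without reads were named after their values were seen. No search for genes of like pattern was made with 4 libraries.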

Additional observations from a re-analysis of the deposited data

How the results depend on the processing

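For the 10 genes, 140 values were computed over 14 alternatives: 119 kept their direction and side of the threshold, 19 kept the direction and passed it, and 2 changed sign. The sign changes came with a library left out: Lef1 ran from -0.0057 without CTL replicate 1 to 0.71 without CTL replicate 2, and Tcf7l1 from -1.01 without Usp28 KO replicate 2 to 0.0030 without Usp28 KO replicate 1. The median of the 10 genes ran from -0.38 to -0.015 with a library left out. The count of all genes called higher and lower, 0 and 0 by edgeR, was 81 and 49 by DESeq2, 18 and 3 with upper-quartile scaling, 24 and 5 with library totals and 204 and 118 with no filter. With 1 library left out it was 49 to 146 higher and 31 to 200 lower. Of the 10 genes, 1 was called lower by DESeq2 and 1 with no filter, and 0 to 2 lower with a library left out. Of the other pathway genes, 1 was called lower by DESeq2 and 1 with no filter, and 0 to 1 higher and 0 to 1 lower with a library left out. The cause of these changes was not tested.

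Same-numbered libraries deviated together across 10704 genes (r = 0.518). There are only 2 pairs, and no label ties the numbers to a batch. Whether same-numbered libraries were made together is not stated in the labels and was not tested. With the replicate number as a block, 965 genes were called higher and 716 lower (6.29% and 4.67%), among them 1 of the 10 genes higher (Rnf43) and 3 lower (Cdx1, Notum and Tcf7l1), and 7 and 4 of the other pathway genes. With the block and the GC correction together, 1297 genes were called higher and 1391 lower, of 15341 tested. Of the 10 genes, 2 were called higher (Lef1 and Rnf43) and 6 lower (Axin2, Sp5, Tcf7l1, Cdx1, Notum and Znrf3). Of the other pathway genes, 5 were called higher and 11 lower.

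Other log2 fold changes that changed sign belong to genes near 0, apart from Klf2 at -0.24. With a library left out, Ctnnb1 ran from -0.20 to 0.12 (0.083 without Usp28 KO replicate 2), Gsk3a from -0.15 to 0.22, Gsk3b from -0.34 to 0.095 (0.023 without Usp28 KO replicate 1), Axin1 from -0.090 to 0.13 and Lrp6 from -0.068 to 0.029. Under the same fits Klf2 ran from -0.62 to 0.054, Pou5f1 from -0.21 to 0.18 (0.079 without Usp28 KO replicate 2), Sox2 from -0.035 (-0.0085 without Usp28 KO replicate 1) to 0.13 and Nanog from -0.26 to 0.051. Upper-quartile scaling gave Ctnnb1 0.015, Lrp6 0.043 and Pou5f1 0.036, and library totals gave them 0.019, 0.048 and 0.039. GC correction gave Gsk3a -0.14, Axin1 -0.067 and Lrp6 0.061, and with the replicate block added -0.14, -0.066 and 0.060. Without division by length, the share of TCF/LEF reads was 11.4% in CTL and 15.1% in Usp28 KO for Lef1, 38.6% and 47.6% for Tcf7, and 5.19% and 3.48% for Tcf7l2, by construction. Tcf7l1 then held 44.8% in CTL and 33.8% in Usp28 KO, so in CTL its share was above that of Tcf7. Of the 10 genes, Rnf43 and Nkd1 had the fewest counts, at 26 to 91 per library.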
